A study of Macaca mulatta with 8 samples.

Results

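Transcripts of the machinery that stores, polyadenylates and degrades maternal mRNA were described in mature oocytes, at metaphase II, from rhesus macaques (Macaca mulatta). The members were chosen by a rule on gene symbols, set with earlier results of these data known. It took the CPEB, YBX, ZAR1, PATL, IGF2BP, PUM, STAU, ELAVL, ZFP36, CPSF, PABP, CNOT, BTG, TOB, TUT, DCP, EDC and EXOSC families together with DAZL, PAN2, PAN3, PARN, XRN1 and XRN2. The rule found 67 genes with 139 probe sets, of 14132 genes with a single symbol and 52766 probe sets in all. Maturation took place in the animal (in vivo) for 4 arrays and in culture (in vitro) for the other 4, and every array carried RNA of a pool of 4 oocytes after 2 rounds of amplification. The age and hormone treatment of the animals and the culture medium are not given in the sources used here. The arrays of a group are called biological replicates, but the animals of origin are not named. The p-values therefore reflect only how far the pools varied, which may in part be technical.

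A fully grown oocyte transcribes almost nothing, and its progress through meiosis and into the embryo runs on messages made earlier. Many of these are kept with short poly(A) tails in complexes that include CPEB1, YBX2 and ZAR1, and are translated when cytoplasmic polyadenylation, for which CPSF recognises the AAUAAA signal, lengthens the tail. Others are removed during maturation and after fertilization: adaptors such as BTG4, TOB proteins and ZFP36L2 bring the CCR4-NOT deadenylase to the message, TUT4 and TUT7 add uridines to the shortened tail, DCP2 removes the cap, and XRN1 and the exosome degrade the body. The arrays read the signal of a transcript after amplification. Tail length was not measured, and its part in the signals was not tested.

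On each array between 77.7% and 87.1% of the member probe sets lay above the background of that array, against 49.9% to 60.9% of all probe sets, and 98 of the 139 were above background on all 8 arrays. The rule asked for a single symbol, which only 24956 probe sets have, and the share above background among those was not computed. The 7 oocyte markers found on the array, among them MOS, BMP15 and ZP3, were above background on every array. Their signal, summed over 7 probe sets, was 27715 to 35391 in vivo and 23226 to 31041 in vitro. Of 15 granulosa and cumulus markers found, 10 were above background on all arrays. Their signal, summed over 31 probe sets, was 48627 to 51421 in vivo and 42584 to 58768 in vitro. The lists differ in their number of probe sets, so the sums of different lists cannot be set against each other. INHBA and STAR were the markers of that list that passed the test, both higher in vitro. Stromal and endothelial markers, at 22 probe sets, summed to 1447 to 1816 in vivo and 1531 to 2357 in vitro. Of these 9 markers, 3 were above background on all arrays. The 7 blood markers, at 12 probe sets, summed to 232 to 319 in vivo and 170 to 223 in vitro. Of these, 0 were above background on all arrays. No marker found on the array stayed below background everywhere, and the part of other cells in the values below was not tested. Of the control ratios for actin and EEF1A1, the one that moved most within a group was the 5′ over 3′ signal ratio of EEF1A1, which drops when amplified RNA is short. It was 0.370, 0.130, 0.368 and 0.0779 in in vivo replicates 1 to 4, and 0.256, 0.204, 0.234 and 0.279 in in vitro replicates 1 to 4.

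The comparison asked whether this machinery differs between oocytes matured in culture and in the animal. With 4 arrays per group, no member transcript passed the test. Signals were compared as log2(signal + 8.2) with limma across all probe sets above a low-signal filter, and a difference is given as in vitro minus in vivo on that scale. Of the 139 member probe sets 115 passed the filter, for 62 of the 67 genes. None of them reached a limma adjusted p of 0.05 (smallest 0.242), where 0.144% of all 26383 tested probe sets did. At an unadjusted p under 0.05 there were 11 member probe sets (9.57%), against 10.2% of all tested. Of these 5 had a higher mean in vitro (4.35%, against 4.7% of all tested) and 6 a lower one (5.22%, against 5.53%). The arrays of the groups did not overlap at 7 member probe sets (6.09%), against 6.28% of all tested. In 1 of them (0.870%) the in vitro arrays lay above, against 3.17% of all tested, and in 6 (5.22%) they lay below, against 3.11%. The shares at an unadjusted p under 0.05 and of groups that do not overlap in either direction are near those of the whole array, while that direction split rests on 7 probe sets and was not tested. With each array centred on its median instead, 13 members had an unadjusted p under 0.05 (11.3%, against 10.2% of all tested), and 61.5% of these were higher in vitro, beside 45.5% with the deposited scaling. Over all tested probe sets with such a p the share higher in vitro was 59.7% with centring and 45.9% with the deposited scaling. The median difference of the member probe sets was -0.01, beside 0.01 over all tested, and 56 of 115 were positive. Every pool held 4 oocytes, but for any other cell type in a pool, fewer cells and less RNA per cell cannot be told apart. The deposited values have the same trimmed mean on every array (149.96). A change shared by all transcripts of an oocyte would therefore not show in these differences.

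**Figure D1:**
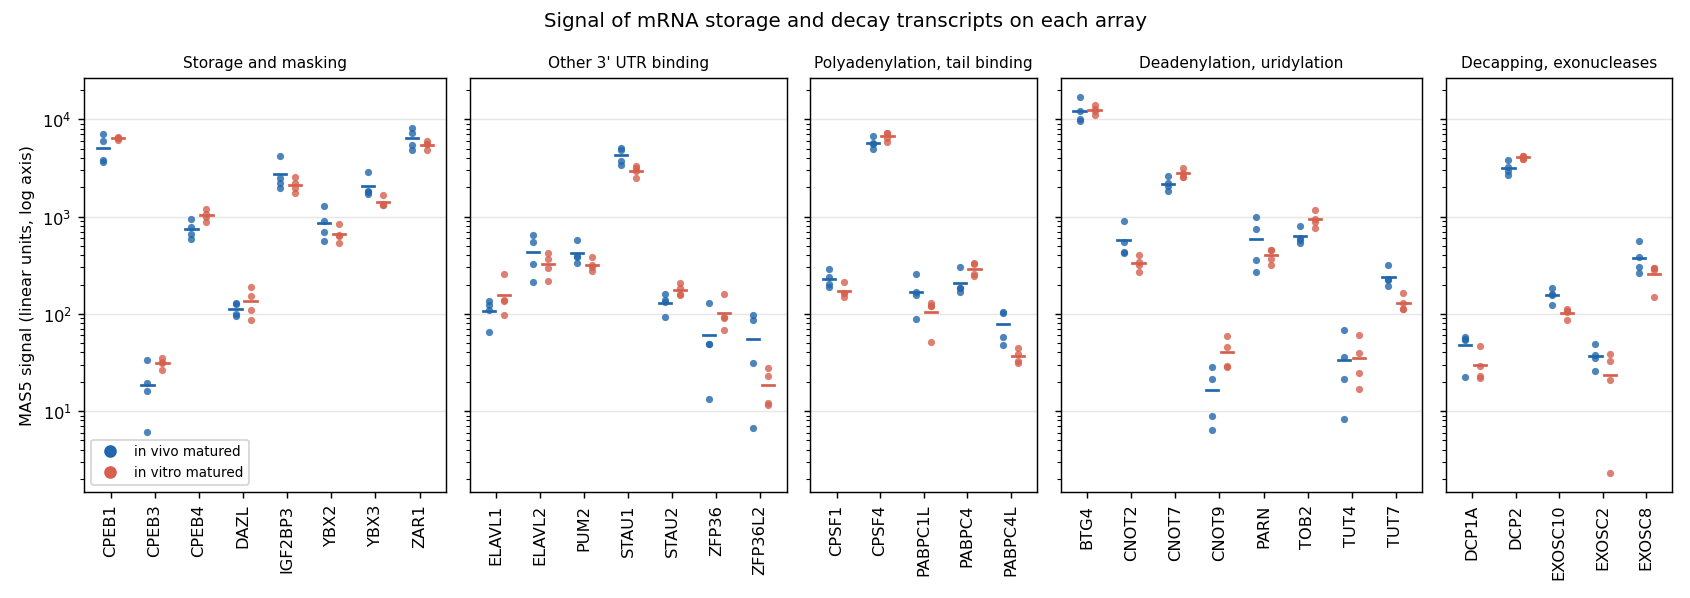
MAS5 signal on a log axis for 33 genes at the probe set with the smallest p, in 5 panels by role, with a point for each array and a bar at the group mean. Blue points are the 4 in vivo pools and red points the 4 in vitro pools, and at most genes the groups overlap.

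Among the storage and masking factors, 0 of 25 tested probe sets passed and 15 had a positive difference. The CPEB proteins bind the cytoplasmic polyadenylation element. CPEB1, the member that controls translation of maternal messages in meiosis, had signals of 3821, 5997, 3634 and 7022 in in vivo replicates 1 to 4, and of 6408, 6355, 6511 and 6111.5 in in vitro replicates 1 to 4. The in vitro pools lay close together inside the in vivo range, and in vivo replicates 1 and 3 stood below all other pools. Its difference was 0.37 ± 0.20 (SE, n = 4 each; limma adjusted p = 0.566). A second CPEB1 probe set had -0.26, with both group means inside the range of the other group.

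In the same in vivo replicates 1 and 3, where CPEB1 was low, the EEF1A1 ratio was high, at 0.370 and 0.368. With this ratio as a covariate, an alternative chosen after seeing the data, the CPEB1 difference was 0.50 ± 0.11 (SE) and passed (limma adjusted p = 0.0394). In that fit 1.11% of all tested probe sets passed, and CPEB1 was the only 1 of 115 member probe sets. The second CPEB1 probe set had -0.25 in that fit (limma adjusted p = 0.655). Over all settings run the limma adjusted p of the first CPEB1 probe set ranged from 0.0394 to 0.788, with a positive difference in each. With the covariate the members at an unadjusted p under 0.05 numbered 20 (17.4%), against 15.6% of all tested. CPEB4, which in frog oocytes takes over from CPEB1 late in meiosis, had 588, 772.5, 654.5 and 950.1 in vivo and 996, 1197, 1066 and 882.5 in vitro. Only in vivo replicate 4 reached into the in vitro range, and the difference was 0.49 ± 0.19 (SE; limma adjusted p = 0.401). The other CPEB4 probe sets had 0.35 and -0.16. CPEB3 had 0.65, -0.38 and 0.29 at its 3 probe sets, the first of them near background in vivo, at 33.3, 16.0, 19.3 and 6.1. The CPEB2 difference was 0.14.

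**Figure D2:**
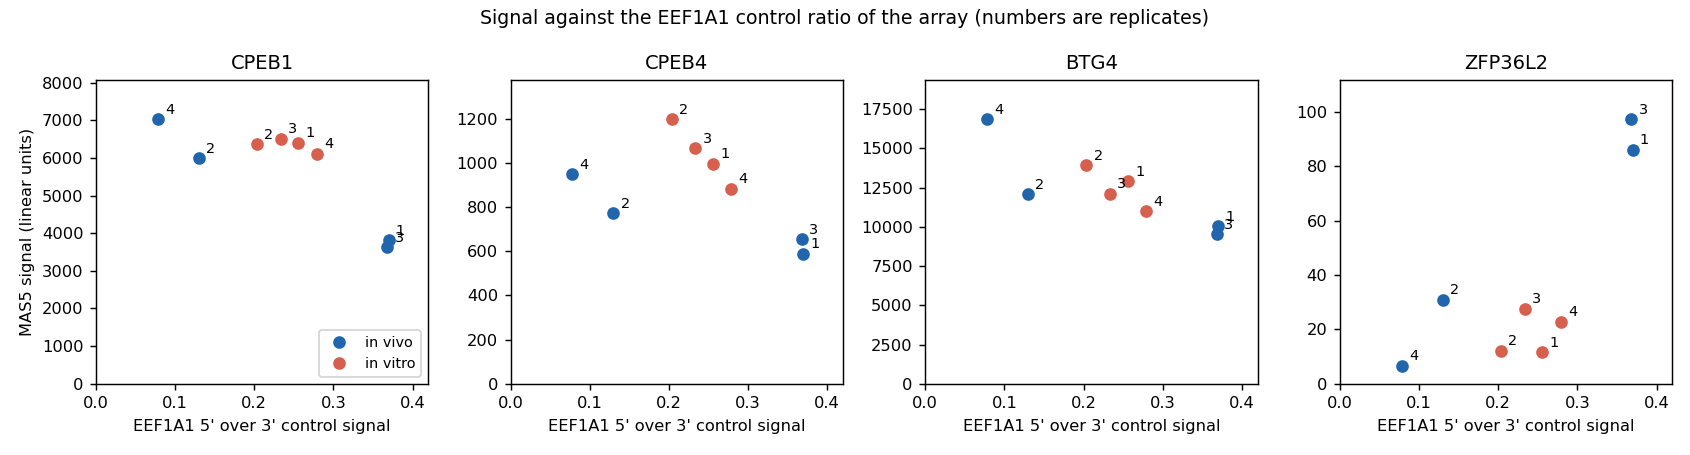
MAS5 signal of CPEB1, CPEB4, BTG4 and ZFP36L2 (linear units, axis from 0) against the 5′ over 3′ signal ratio of the EEF1A1 control on the same array, with the replicate number beside each point. The in vivo pools in blue fall at both ends of the ratio, 0.0779 to 0.370, and the in vitro pools in red between 0.204 and 0.279.

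The Y-box proteins coat and mask messages. YBX3 signals were 2874, 1792, 1838.5 and 1721 in vivo and 1312, 1647, 1302 and 1344 in vitro. All in vitro pools lay below all in vivo pools, by a small gap between in vivo replicate 4 and in vitro replicate 2, and in vivo replicate 1 stood above the rest. The difference was -0.52 ± 0.19 (SE; limma adjusted p = 0.367), and its other probe set had -0.21. YBX2, the germ cell member of the family, was at 687, 905, 1286 and 558 in vivo and 842, 637, 643 and 531 in vitro. In vivo replicate 3 was the highest and in vitro replicate 4 the lowest, and the other pools overlapped, with a difference of -0.32 ± 0.25 (SE), or -0.10 with in vivo replicate 3 left out. YBX1 had -0.17 and 0.02.

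Oocyte-specific and germ cell factors of this group overlapped between the groups. ZAR1, an RNA-binding protein needed at the passage from egg to embryo, was at 4810.3, 5377.5, 7306 and 8215 in vivo and 6017, 5551, 4783 and 5564 in vitro. The difference was -0.20 with a 95% interval from -0.59 to 0.19. DAZL, a germ cell protein that promotes translation during maturation, had a positive difference at its 3 tested probe sets, 0.20, 0.10 and 0.03. At the second of these it was 3348, 4055, 3633 and 6024 in vivo and 5312, 4207, 4377 and 4026 in vitro, with in vivo replicate 4 highest. IGF2BP3, which binds and stabilises messages, had -0.30, 0.28, 0.19 and -0.04 at 4 probe sets, of which 2 were negative. The probe set with the smallest p was at 1943, 2472, 2199.9 and 4232 in vivo and 2193, 1731, 2572 and 1981 in vitro, where in vivo replicate 4 stood above every other pool and, left out, gave -0.07. PATL1, a scaffold between the message and the decapping enzyme, was positive at its 3 tested probe sets, from 0.12 to 0.29. IGF2BP1 and IGF2BP2 were too dim to be tested: IGF2BP2 was below background on every array. PATL2 was not analysed here.

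Other proteins that bind 3′ untranslated regions had 0 of 17 tested probe sets past the threshold, and 6 of 17 differences were positive. STAU1, a double-stranded RNA-binding protein of transport and decay, was at 3383, 4845, 5124 and 3708 in vivo and 2473, 3329.8, 2916 and 3173 in vitro. Every in vitro pool lay below every in vivo pool, the closest being in vitro replicate 2 and in vivo replicate 1. The difference was -0.51 ± 0.18 (SE; limma adjusted p = 0.348). At the other STAU1 probe sets it was -0.15 and 0.04. Its relative STAU2 had 0.42, from 159, 139.5, 91.8 and 132 in vivo and 156, 159, 183 and 205 in vitro, and -0.07 at a second probe set.

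The ZFP36 family binds AU-rich elements and recruits the deadenylase. ZFP36 was at 49.2, 48.8, 13.4 and 129 in vivo and 90.7, 67.7, 92.3 and 160.5 in vitro, with in vivo replicate 3 below background and in vivo replicate 4 inside the in vitro range. Its difference was 0.93 ± 0.46 (SE; limma adjusted p = 0.511). It was 1.36 without in vivo replicate 4, and leaving out in vivo replicate 3 gave 0.47. ZFP36L2, which in oocytes is required for fertility in mice, had 86.2, 30.9, 97.3 and 6.7 in vivo and 11.6, 12.2, 27.7 and 22.8 in vitro. In vivo replicates 1 and 3 were high, the pools with the highest EEF1A1 ratio, and in vivo replicate 4 was the lowest of all. The interval was correspondingly wide, -2.12 to 0.27 around -0.92, and the difference was -1.50 without in vivo replicate 4, and leaving out in vivo replicate 1 gave -0.61. At a second ZFP36L2 probe set in vivo replicates 1 and 3 were again the highest and in vivo replicate 4 the lowest, at 258, 88.3, 256 and 40.7, against 112, 80.7, 118 and 140.1 in vitro (-0.18). ZFP36L1 had 0.29 at its tested probe set.

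ELAVL proteins stabilise AU-rich messages and Pumilio proteins repress theirs. ELAVL1 was at 64.5, 122, 108.5 and 134 in vivo and 136, 138, 97.8 and 259 in vitro (0.48, limma adjusted p = 0.632). In vitro replicate 4 was the highest and in vivo replicate 1 the lowest, and in vitro replicate 3 lay inside the in vivo range. The difference was 0.22 with in vitro replicate 4 left out. ELAVL2 had -0.30 and -0.04, while ELAVL3 and ELAVL4 were too dim to be tested. PUM2, a translational repressor, had -0.36, 0.18 and -0.01. At the first, marked by its name as shared by several transcripts, it was 392.5, 380.4, 337 and 573 in vivo and 277, 318.5, 382 and 306 in vitro. PUM3 had -0.09 and -0.02.

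For cleavage, polyadenylation and tail binding, 0 of 13 tested probe sets passed and 7 were positive. CPSF4, the zinc finger subunit that helps recognise the polyadenylation signal, was at 5745, 5521, 4997 and 6666 in vivo and 7147.5, 7247, 5899 and 6354 in vitro. Its difference of 0.22 had a 95% interval from -0.11 to 0.54. CPSF1, the largest subunit, had 201.5, 237, 286 and 189 in vivo and 164, 210.1, 165 and 149 in vitro, with a difference of -0.39 ± 0.22 (SE; limma adjusted p = 0.579). The endonuclease gene CPSF3 had -0.03, and CPSF6 had -0.33 and 0.09.

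Poly(A)-binding proteins protect the tail and link it to translation. PABPC4L had signals of 101, 48.2, 105 and 57.5 in vivo and 44.5, 32.8, 31.4 and 38.6 in vitro, with all in vitro pools below all in vivo pools. The difference was -0.88 ± 0.32 (SE; limma adjusted p = 0.365), at a probe set whose name marks it as shared by several transcripts. PABPC4 was at 304, 183, 182 and 167 in vivo and 328, 258.5, 247 and 333.5 in vitro at 1 probe set (0.49 ± 0.23 SE, limma adjusted p = 0.498), and had 0.14 at another. In vivo replicate 1 alone reached the in vitro range there. PABPN1, the nuclear form, was positive at both its probe sets, 0.45 and 0.27. PABPC1L, the embryonic form that oocytes use, had -0.62 and 0.40, opposite in sign. At the first it was 87.4, 158, 166 and 259 in vivo and 128, 120.3, 119 and 51.3 in vitro, with in vitro replicate 4 far below the other in vitro pools (-0.34 with it left out, and -0.39 with in vivo replicate 4 left out). PABPC3, a near copy of PABPC1 whose signal may include that gene, had -0.23. PABPC1L2B was too dim to be tested, and PABPN1L was not analysed here.

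Deadenylation and uridylation held the smallest p of all members, and 0 of 37 tested probe sets passed. TUT7, a terminal uridylyltransferase, was at 221, 319, 229.5 and 194 in vivo and 111, 112, 130.5 and 165 in vitro. The highest in vitro pool, replicate 4, lay below the lowest in vivo pool, also replicate 4. The difference was -0.85 ± 0.23 (SE; unadjusted p = 0.00271, limma adjusted p = 0.242). A second TUT7 probe set did not pass the low-signal filter, at 4.1, 26.2, 49.7 and 19.0 in vivo and 31.3, 3.2, 42.5 and 23.1 in vitro. TUT4, which acts on the same tails, lay near background at 68.7, 8.2, 21.2 and 35.6 in vivo and 39.3, 17.0, 59.9 and 24.5 in vitro, with a difference of 0.18 and an interval from -0.87 to 1.23. TUT1 had -0.40.

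The CCR4-NOT complex is the main deadenylase of the cytoplasm. CNOT7, a catalytic subunit, had a positive difference at all 4 of its probe sets, 0.35, 0.51, 0.27 and 0.16. The first was at 2581, 2235.5, 1835 and 2078.5 in vivo and 3127, 2574, 2827 and 2558 in vitro, where only in vivo replicate 1 overlapped the in vitro pools (unadjusted p = 0.0492, limma adjusted p = 0.487). Its near relative CNOT8 had 0.15, 0.14 and -0.04. CNOT2, a subunit of the module that binds adaptors, was negative at all 3 of its probe sets, -0.72, -0.25 and -0.16. The last was dim, above background on 2 in vivo and 3 in vitro arrays. At the first the signals were 544, 432, 891 and 427 in vivo and 320.3, 342.5, 403 and 266 in vitro, without overlap, and in vivo replicate 3 was highest (limma adjusted p = 0.343). The scaffold gene CNOT1 had -0.50 at 1 probe set, where in vivo replicate 3 stood at 1823 and the other pools between 486 and 783. At its other probe sets the differences were 0.12 and -0.07. CNOT9 had a difference of 1.05 ± 0.43 (SE) at a probe set above background on 1 in vivo array, with 28.6, 6.4, 8.9 and 21.3 in vivo and 59.7, 28.2, 29.3 and 46.0 in vitro. Its unadjusted p was 0.0271 and its limma adjusted p 0.417, and the name of the probe set marks it as shared by several transcripts. At so dim a probe set the size depends on the constant added before taking log2: it was 1.43 with a constant of 1 and 0.64 with the median signal of 27.7. The other CNOT9 probe sets had 0.36 and 0.04. CNOT3, CNOT4 and CNOT11 lay between -0.22 and 0.18. CNOT6L was not analysed here.

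Adaptors and the other deadenylases differed in sign. BTG4, the oocyte adaptor whose loss blocks removal of maternal messages in mice, was at 10035, 12099.8, 9518 and 16849.7 in vivo and 12893, 13918, 12102 and 11008 in vitro. The in vitro pools fell inside the in vivo range, and the difference was 0.07 with an interval from -0.32 to 0.46. TOB2 was at 797, 578, 604 and 528.5 in vivo and 945, 764.5, 881 and 1167 in vitro at the probe set with the smallest p. Only in vivo replicate 1 reached above the lowest in vitro pool, with a difference of 0.58 ± 0.20 (SE; limma adjusted p = 0.335). The other TOB2 probe sets had -0.70, at a dim probe set above background on 2 in vitro arrays, and 0.12. TOB1 was negative at both its probe sets, -0.49 and -0.29. PARN, a poly(A)-specific ribonuclease, was at 271, 751, 985 and 356 in vivo and 320.5, 458, 452 and 364 in vitro, the in vivo pools falling on both sides of the in vitro pools. Both PARN probe sets had the in vivo pools in the same order, with differences of -0.39 and -0.33. The first became -0.08 with in vivo replicate 3 left out and -0.69 with in vivo replicate 1 left out. PAN2 and PAN3, which trim long tails, had 0.13 and 0.29. BTG2 and BTG3 had 0.01 and -0.01.

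In decapping and exonucleolytic decay 0 of 23 tested probe sets passed, and 9 were positive. DCP2, the decapping enzyme, was at 2939.5, 3208, 2679.6 and 3771 in vivo and 4235, 3886, 4179 and 3924 in vitro, and the in vitro pools lay above all in vivo pools. Its difference was 0.37 ± 0.16 (SE; limma adjusted p = 0.423). The other tested DCP2 probe sets had 0.23 and 0.09, and 3 more were too dim to be tested. Its activator DCP1A was at 57.2, 54.1, 22.6 and 55.3 in vivo and 46.6, 28.8, 22.1 and 22.8 in vitro (-0.52), with in vivo replicate 3 apart from the other in vivo pools. In vivo replicate 3 and in vitro replicate 4 lay below the background of their arrays there. DCP1B had -0.25, and EDC4, the scaffold of the decapping complex, had 0.25. XRN2, the nuclear 5′ to 3′ exonuclease, had -0.20, 0.15 and 0.12, and XRN1 was not analysed here.

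The exosome degrades RNA from the 3′ end. EXOSC10, its nuclear catalytic subunit, was at 183, 124, 155 and 161 in vivo and 111, 108, 86.7 and 104 in vitro. The groups did not overlap, and the difference was -0.56 ± 0.23 (SE; limma adjusted p = 0.417), while a second probe set had -0.04. EXOSC8, a subunit of the ring, was at 262, 384, 565 and 299.7 in vivo and 148.5, 298, 294 and 284 in vitro. In vitro replicate 1 stood below all other pools there, and the difference was -0.53 (limma adjusted p = 0.545), or -0.30 with it left out. EXOSC2 had -0.67 and -0.10, the first at signals of 25.9, 37.8, 34.7 and 48.6 in vivo and 33.0, 20.9, 2.3 and 38.6 in vitro. The low in vitro replicate 3 carries much of that value, which was -0.21 with it left out. The remaining subunits EXOSC1, EXOSC3, EXOSC4, EXOSC5, EXOSC7 and EXOSC9 lay between -0.37 and 0.21.

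**Figure D3:**
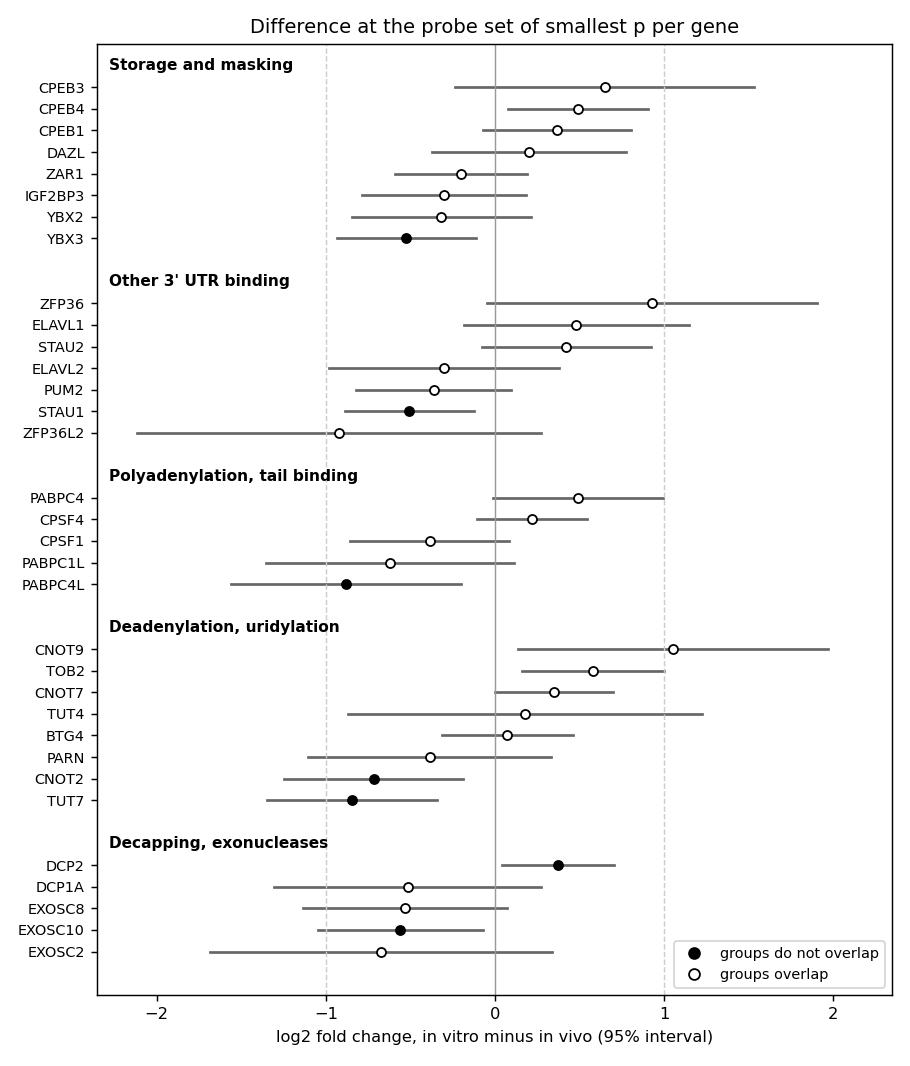
Difference in log2(signal + 8.2), in vitro minus in vivo, with its 95% interval for the same 33 genes by role. Filled points are the 7 probe sets whose groups of 4 arrays do not overlap, dashed lines mark a 2-fold difference, and none of the 33 passed the adjusted threshold.

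Different probe sets of a gene show how far its difference depends on the probe set. They were read on the same pools, so their agreement says nothing about variation between pools. Some, as both of TOB1, differ in name only by a suffix. Of 32 genes with more than 1 tested probe set, 16 had the same sign at all of them and 16 had both signs. The spread between the highest and lowest difference within a gene had a median of 0.42. CNOT7 and CNOT9 were positive at all tested probe sets, as were DAZL, DCP2, PATL1, PABPC4 and PABPN1. CNOT2, EXOSC2, EXOSC10, ELAVL2, PARN, PUM3, TOB1, YBX3 and ZFP36L2 were negative at all tested probe sets. Some of these values were very small, as 0.03 for DAZL, 0.04 for CNOT9 and -0.02 for PUM3. The share of such genes over the whole array was not computed, so the even split is a description only. Across all 115 tested probe sets the differences ran from -0.92 for ZFP36L2 to 1.05 for CNOT9, both dim, and 1 was of 2-fold or more (0.870%, against 2.95% of all tested). That count depends on the added constant: it was 0 with the median signal (against 1.11%) and 4 with a constant of 1 (ZFP36L2, EXOSC2, CNOT9 and ZFP36, 3.48% against 5.83%).

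**Figure D4:**
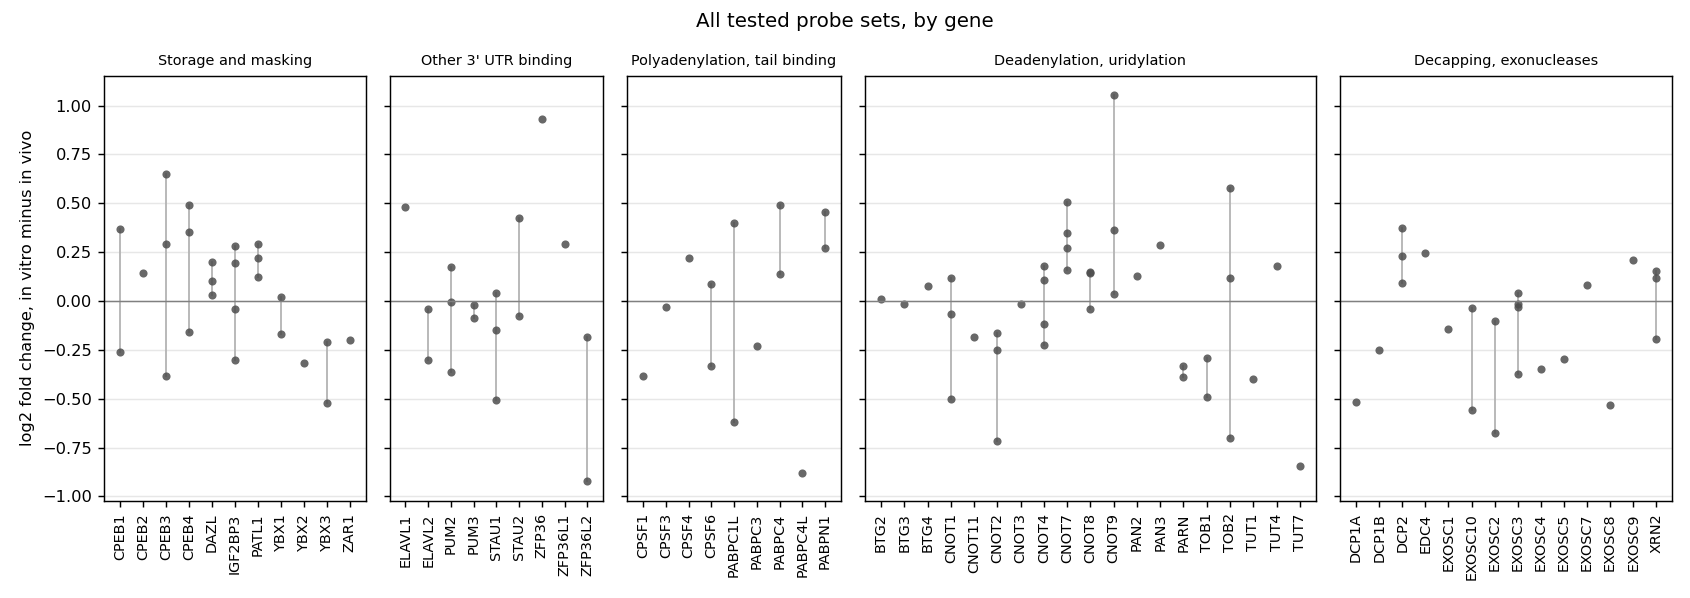
Differences of all 115 tested probe sets (log2 scale, in vitro minus in vivo), a column of points for each of 62 genes in 5 panels by role, joined where a gene has several. In 16 of 32 genes with several probe sets the points lie on both sides of 0.

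The precision of these values sets what the comparison could have shown. The 95% interval of the difference lay within 2-fold in either direction at 83 of 115 member probe sets (72.2%), against 55.7% of all tested. It lay within 1.5-fold at 24 member probe sets, among them those of BTG4, CPSF4 and EXOSC7. The intervals are not adjusted for the number of probe sets. In simulated data with the spreads of all tested probe sets, averaged over the groups, 16% of 2-fold changes and 74% of 4-fold changes were recovered at the adjusted threshold. Replicates varied more in vivo than in vitro: the standard deviation of the log2 values was larger in vivo at 83 of 115 member probe sets (72.2%), against 66.3% of all tested. Its median over the members was 0.36 in vivo and 0.24 in vitro, beside 0.43 and 0.32 over all tested.

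Pathway genes outside the symbol rule were taken from a list of binding partners, polymerases and cofactors. Of 74 listed symbols, 42 genes were found on the array and 35 were tested, at 74 probe sets. None passed (smallest limma adjusted p = 0.390), 7 probe sets had an unadjusted p under 0.05 (9.46%, against 10.2% of all tested), and the median difference was -0.00. Of the 7, 1 was higher in vitro (1.35%, against 4.7% of all tested) and 6 lower (8.11%, against 5.53%), and 2 probe sets did not overlap between the groups (2.70%, against 6.28%). CAPRIN1, an RNA granule protein, was at 463, 761, 488 and 538 in vivo and 401, 297, 383 and 425 in vitro, without overlap (-0.55 ± 0.21 SE, limma adjusted p = 0.39). Its other tested probe sets ran from -0.66 to 0.31. NANOS1, a translational repressor that works with Pumilio proteins, was at 3365, 3414, 4879.6 and 3762 in vivo and 2879, 2964, 3325 and 2456 in vitro, also without overlap (-0.40 ± 0.17 SE, limma adjusted p = 0.443). PAPOLG, a poly(A) polymerase, had -0.80 and -1.04 at the 2 probe sets with the smallest p, and -0.25 to 0.28 at the others. WDR33, the subunit that contacts the polyadenylation signal beside CPSF4, had -0.95 at a dim probe set (limma adjusted p = 0.457) and -0.05 and -0.00 at its other tested probe sets.

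Leaving out an array moved the count at an unadjusted p under 0.05 most for in vivo replicate 4, the pool with the lowest EEF1A1 ratio. Without it 19 of 116 tested member probe sets had such a p (16.4%), against 13.5% of all tested, and 0 passed the adjusted threshold. The 8 smallest limma adjusted p-values then ran from 0.130 to 0.200, for TUT7, ZFP36, DCP2, ZFP36L2, CPEB4, CNOT2, STAU1 and CPEB1 in that order. With in vivo replicates 1 to 4 left out in turn, 15.7%, 6.96%, 9.57% and 13.9% of the 115 member probe sets had groups that did not overlap, against 11.1%, 10.1%, 8.98% and 11.8% of all tested. With in vitro replicates 1 to 4 left out in turn the shares were 6.09%, 9.57%, 8.70% and 6.96%, against 8.75%, 9.43%, 9.45% and 9.37%. The members were thus above the array-wide share in some of these settings and below it in others.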

How the data were processed

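Pools of 4 oocytes were measured on single-colour arrays, 4 per group, and groups were taken from the sample titles. The authors deposited linear intensity values made with MAS5, as the submitters' processing notes name it without a version. MAS5 treats each probe set alone, so dim values vary between arrays, and 3′ amplification can weaken probe sets far from the transcript's end. The members and lists were chosen with earlier results of these data known. Symbols are those of the platform annotation, and 135 of 139 member probe sets were matched by Entrez identifier to the RefSeq gene table for this species.

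Control probe sets (99) were left out. To each signal 8.2, the 25th percentile, was added before taking log2, and probe sets were kept above the 50th percentile of the mean log2 value over all 8 arrays (26383 probe sets). A planned wording of this filter also allowed the mean linear signal, which was added as an alternative after seeing the data. The test was limma (version 3.58.1, R 4.3.3, lmFit, eBayes with trend), with Benjamini-Hochberg adjustment at 0.05 over all tested probe sets. The step was also tested on simulated data, drawn with the same spread in both groups, unlike the real arrays. There 9 of 150 calls were false and 16% of 50 simulated 2-fold changes were recovered. The background of an array is the 95th percentile of 59 bacterial and tag control probe sets. Named genes are the 4 with the smallest p in each of 5 roles plus a preset list, each at its probe set with the smallest p, and other members are given by their differences. Alternatives changed the pseudocount, filter, scaling, variance model, array weights, block and arrays. Depth does not apply to arrays, and their number limits the precision. No sequences or coordinates were used here.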

Additional observations from a re-analysis of the deposited data

Results flagged for a closer look

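In 6 of 66 groups of 4 arrays, for the 33 named genes, 1 array stood far from the others by Dixon's criterion, which chance meets in about 1 in 20 groups. DCP1A was at 22.6 in in vivo replicate 3, below the background of 26.8 on that array, against 57.2, 54.1 and 55.3 in the other in vivo pools. EXOSC8 was at 148.5 in in vitro replicate 1, against 298.4, 294.4 and 284.3. PABPC1L was at 51.3 in in vitro replicate 4, against 127.8, 120.3 and 119.1. PABPC4 was at 304.4 in in vivo replicate 1, against 183.1, 182.1 and 167.2. YBX3 stood apart in both groups, at 2874 in in vivo replicate 1 against 1792, 1838.5 and 1721, and at 1647 in in vitro replicate 2 against 1312, 1302 and 1344.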

How the results depend on the processing

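The count of 0 members called by limma was the same in all settings run except with the EEF1A1 ratio as a covariate, where it was 1 (CPEB1), and it ranged from 0 to 0 when 1 array was left out. The partner genes had 0 called in every setting run. The count at an unadjusted p under 0.05, 11 in the reported fit, was 20 with the EEF1A1 covariate and ranged from 8 to 19 when 1 array was left out, with 19 without in vivo replicate 4. Member probe sets whose groups did not overlap, 7 with all arrays, ranged from 7 to 18 with 1 array left out, and fewer arrays overlap less by construction. The in vivo replicates gave 18 (replicate 1 left out; 15.7%, against 11.1% of all tested), 16 (replicate 4 left out; 13.9%, against 11.8%) and 11 (replicate 3 left out; 9.57%, against 8.98%), and in vitro replicate 2 gave 11 (9.57%, against 9.43%). The median member difference of -0.01 was 0.053 after median centring, which moved the median of all tested probe sets to 0.07, and -0.065 with 1 probe set per gene, and the cause of the latter was not tested. Changes of the filter, the block or the variance model leave a difference as it is by construction, so they could not turn its direction. Some dim genes fell below the filter in part of the 21 settings: CPEB3 was tested in 14 and CNOT9 in 18. Of 33 named genes, each at its probe set with the smallest p, 31 kept their direction in every setting in which they were tested. The exceptions were BTG4, at -0.0045 with in vivo replicate 1 left out and -0.030 with in vivo replicate 3 left out (range with 1 array left out -0.030 to 0.24), and TUT4, at -0.20 with in vivo replicate 2 left out and -0.07 with in vitro replicate 3 left out (range -0.20 to 0.55), for which the cause was not tested. The replicate numbers are shared between groups, and the deviations of same-numbered arrays correlated at 0.0155, -0.0133, -0.0467 and -0.0248. No in vivo array correlated best with its own number, and among the in vitro arrays only replicate 1 did. These values show no pairing by number, but they cannot tell whether same-numbered pools shared animals or a batch. With the replicate block, 0 members were called and 11 had an unadjusted p under 0.05, and 43 of all tested probe sets were called, beside 38. Signals near or below background on some arrays limit the values of CNOT9, CPEB3, TUT4, EXOSC2, ZFP36L2, DCP1A and ZFP36.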
